A study of Mus musculus with 18 samples.

Results

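The 86 genes described here carry the symbols of the proteins of the cytosolic ribosome, the particle that translates messenger RNA in every cell. They were taken by symbol from a count table of 55487 genes: a gene was included if it is Rpsa or if its symbol is Rpl, Rps or Rplp (the acidic stalk proteins) followed by a number and, in some, an ending such as a, x, l or l1. Of the 86, 53 were assigned to the large and 33 to the small subunit. In the annotation, 82 are protein coding and 4 (Rpl32l, Rpl6l, Rps4l and Rps12l1) are of a pseudogene class. The study measured RNA in BV2 cells, an immortalised mouse microglial line, after exposure to oxyhemoglobin, the oxygen-carrying protein that red blood cells release where blood escapes into the brain. The cells were lysed in a hypotonic buffer with the detergent NP-40, and nuclear and cytoplasmic RNA were sequenced apart. There were 6 groups with 3 libraries each, 18 in all. They were nuclear RNA of untreated cells (0 h) and of cells given 10 µM oxyhemoglobin for 12 or 24 h, and cytoplasmic RNA at the same 0, 12 and 24 h. All groups came from the same line and the same serum-containing medium. No group was left untreated for 12 or 24 h, so treatment and time in culture cannot be told apart. The labels do not say whether the 3 libraries of a group came from separate cultures.

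Ribosomal proteins are made in the cytoplasm, imported into the nucleus and built there, mostly in the nucleolus, onto ribosomal RNA to form a large and a small subunit that are then exported. Most of their messenger RNAs are short, abundant and stable, and begin with a C followed by a run of pyrimidines, the 5′ terminal oligopyrimidine (TOP) motif. Through it the mTOR kinase and the RNA-binding protein LARP1 control how strongly these RNAs are translated and how long they are kept. Their genes are few-exon genes with many processed pseudogene copies, and several hold small nucleolar RNA (snoRNA) genes in their introns.

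Each group is present as 1 column, the mean of its 3 libraries, so no SD, replicate test or p-value could be given for any value. Reads summed over the 3 libraries were 14652566, 15899566 and 16031875 in the nucleus at 0, 12 and 24 h, and 22379595, 16537318 and 19537309 in the cytoplasm. Levels are counts per 1e+06 counts of the column (CPM) after trimmed-mean (TMM) scaling, which brings the middle of the genes of different columns to the same level. Differences are log2 ratios with an exact 95% interval from the summed reads, which covers counting error only and not the spread between libraries. A gene is called higher or lower where the ratio reached 2-fold and the interval excluded 0. With the deposited TPM, a level per transcript length, a call rests on the 2-fold ratio alone, without an interval. A single gene took 18.6%, 16.3% and 22.1% of nuclear reads at 0, 12 and 24 h, against at most 0.132% in the cytoplasm. Marker levels, in this paragraph only, are CPM of all counts without TMM. Of 10 microglial marker genes, 7 reached 5 CPM in untreated nuclei and 3 in untreated cytoplasm. Ptprc, Trem2 and Laptm5 were the most abundant, while Aif1 and Tyrobp stayed at or under 1.57 and 3.07 CPM and C1qa at or under 0.223 CPM in all 6 groups, with no read in 3 of them. The summed level of these markers was 694 and 637 CPM in nuclei at 12 and 24 h and 1194 CPM in untreated nuclei, and 323 and 316 CPM in cytoplasm at 12 and 24 h and 627 CPM in untreated cytoplasm. Markers of fibroblasts, neurons and astrocytes summed to at most 6.71, 2.72 and 1.31 CPM in any group, and those of oligodendrocytes, erythroid cells and endothelium to at most 13.4, 13.4 and 9.73 CPM. Endothelial markers had 6.59 and 6.40 CPM in cytoplasm at 12 and 24 h and 1.74 CPM in untreated cytoplasm. The nuclear RNA Malat1 stood at 35110 CPM in untreated nuclei and 1620.1 CPM in untreated cytoplasm. Of 5 messenger RNAs listed as cytoplasmic, Actb, Eef2 and Tuba1b had 255, 1474 and 324 CPM in untreated nuclei and 1321, 10998 and 1812 CPM in untreated cytoplasm. Gapdh and Ldha lay the other way, at 143 and 50.1 CPM in untreated nuclei and 18.5 and 3.31 CPM in untreated cytoplasm. In these bulk fractions, fewer cells with a transcript and less of it per cell cannot be told apart.

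The ribosomal protein genes took 0.670%, 0.615% and 0.540% of nuclear reads at 0, 12 and 24 h, and 1.92%, 1.46% and 1.35% of cytoplasmic reads. Large subunit genes held 1.26%, 1.04% and 0.935% of the cytoplasmic reads at these times, and small subunit genes 0.654%, 0.424% and 0.415%. These raw shares also move with the single gene that took most nuclear reads. With TMM, the summed nuclear log2 ratio over untreated cells was 0.09 (0.08 to 0.10) at 12 h and −0.01 (−0.03 to 0.00) at 24 h. Genes named as ribosomal protein pseudogenes, which are not among the 86, took 0.481%, 0.427% and 0.417% of cytoplasmic reads.

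Levels differed widely between genes of the same particle, most of whose proteins are present in about equal numbers in a finished ribosome. Per kilobase of exon, Rplp1, an acidic protein of the stalk that recruits translation factors, was the highest in all 6 groups. It had 1155, 1311 and 1209 CPM per kilobase (here without TMM) in the nucleus at 0, 12 and 24 h, and 4046, 6917 and 5771 in the cytoplasm. The next levels in untreated cytoplasm, on the same per-length scale, were 1249.6 for Rpl36, 1148 for Rpl10, 998 for Rps2 and 596 for Rps6. In untreated nuclei the order after Rplp1 was Rpl10 at 263, Rpl36 at 244, Rpl3 at 168 and Rpl4 at 112. Rpl10 and Rpl36 lay close together there, and with the other length measure that the deposited TPM imply, Rpl36 had rank 2 and Rpl10 rank 4. Of the 86 genes, 77 had enough reads to be compared between times in the nucleus and 72 in the cytoplasm. The 9 left out of both were Rpl17, Rpl38, Rps13 and 6 paralogs or pseudogenes, and Rpl24, Rpl35, Rpl36a, Rpl41 and Rps27 were left out of the cytoplasm alone. At the low end, 28 of the genes were under 5 CPM in untreated cytoplasm although reads were found in at least 1 group, and 19 of these reached 5 CPM in untreated nuclei. They include proteins that no ribosome lacks, such as Rpl8, next to the peptidyl transferase centre, at 1.45 CPM, and Rps14, of the platform, at 2.26 CPM in untreated cytoplasm. Reads that fit several copies of a sequence may have been dropped or shared out in the counting, whose setting is not given in the sources used here. Rpl8 shares 1.41% and Rps14 15.0% of its 100-base windows with another annotated gene, and the part of such reads in these levels was not tested.

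**Figure D1:**
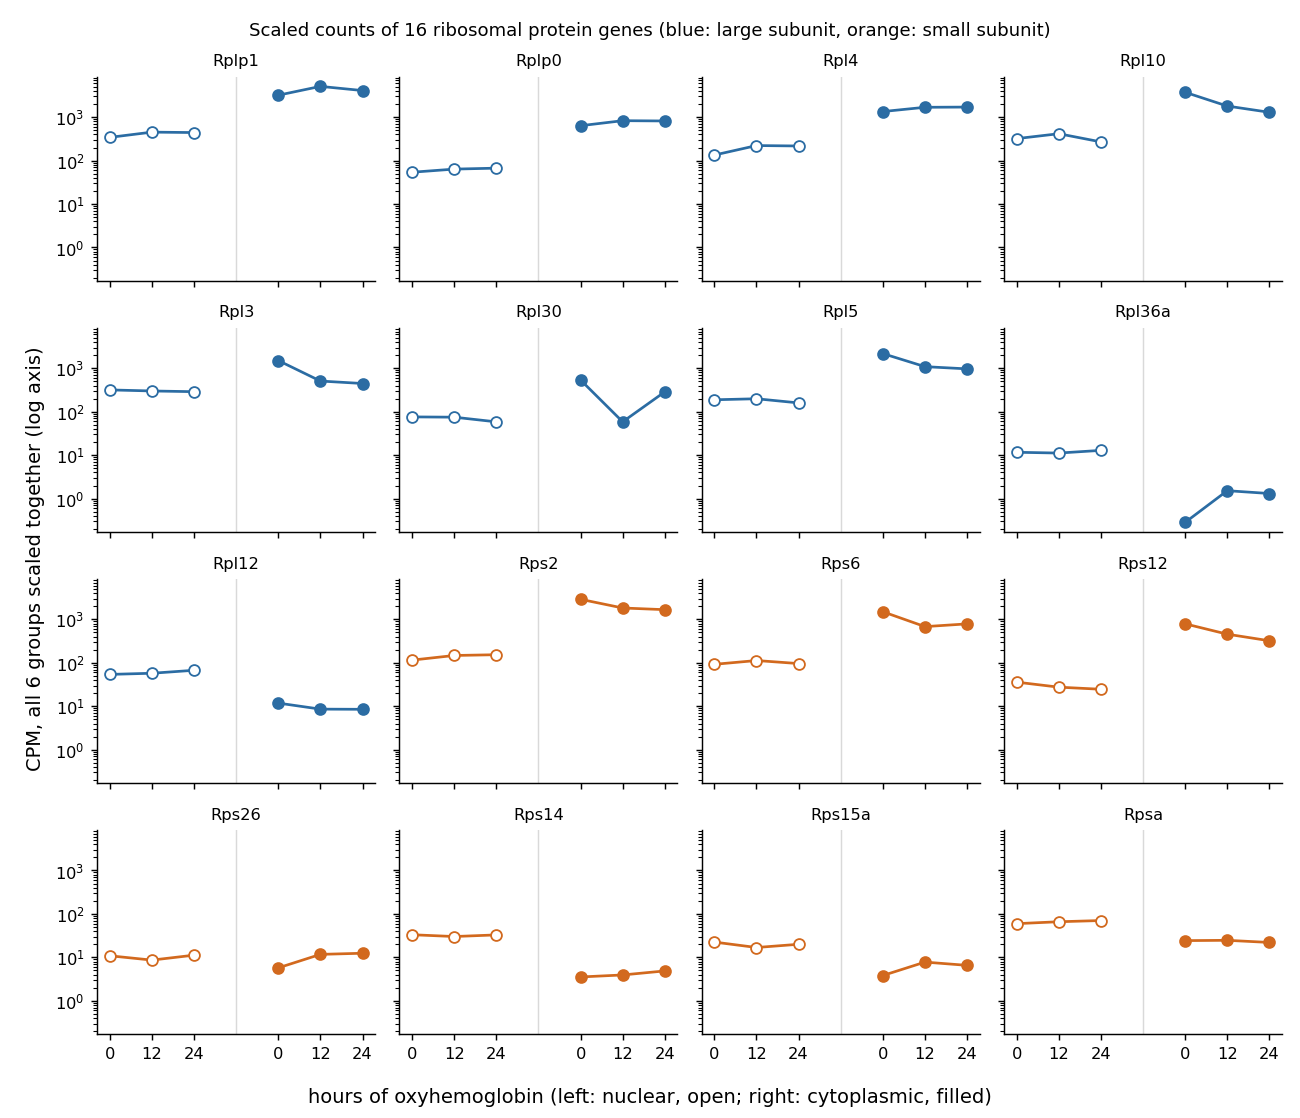
Scaled level (CPM, log axis, all 6 groups scaled together) of 16 ribosomal protein genes at 0, 12 and 24 h of oxyhemoglobin, with nuclear values as open circles at the left and cytoplasmic values as filled circles at the right of each panel. Each circle is the mean of 3 libraries, with no error bar. The cytoplasmic value of Rpl30 dips to 58.5 CPM at 12 h, between 537 CPM at 0 h and 287 CPM at 24 h, while its nuclear values lie between 58.4 and 75.9 CPM.

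The copies and pseudogene-class genes covered a wide range of levels. Rpl10l and Rpl39l, retrogene copies known from the germ line, and the pseudogene-class gene Rps4l had no read in any group. This allows at most 0.205 CPM in nuclei and 0.181 CPM in cytoplasm. The pseudogene-class gene Rps12l1 also had no read. However, 100% of its 100-base windows occur in other annotated genes, and 100% of its exonic bases overlap another gene. Its lack of reads therefore sets no limit on its level. Rpl3l, the striated muscle copy of Rpl3, had 0.242, 0.519 and 0.204 CPM in the nucleus at 0, 12 and 24 h and no read in the cytoplasm. Rps27l, known as a p53 target, had 1.27, 0.778 and 1.64 CPM in the nucleus and at most 0.136 CPM in the cytoplasm. Rpl22l1, the copy of Rpl22, had 5.98, 3.37 and 1.91 CPM in the cytoplasm at 0, 12 and 24 h, when Rpl22 itself had 1.49, 2.12 and 2.10 CPM. Rpl7l1, a large subunit assembly factor related to Rpl7, was abundant, with 116, 173 and 159.6 CPM in the nucleus and 287.5, 386 and 314 CPM in the cytoplasm. Rpl6l, a processed pseudogene that shares 61.9% of its 100-base windows with other annotated genes, had 25.1, 32.9 and 28.0 CPM in the nucleus and 93.3, 83.7 and 73.2 CPM in the cytoplasm.

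Around their annotated starts, some of these genes have a long run of pyrimidines and others do not. RefSeq promoter windows on GRCm38.p6 (250 bases before the start and 50 from it) were matched for 63 of the 86, through 75 starts. In the next lines, each sequence is the 15 bases before and the 15 from the annotated start, read 5′ to 3′ on the gene's strand. Capitals mark the longest run of C and T that touches this window, as far as it lies inside it. This run can lie wholly before or after the start, so it is not by itself a TOP motif. In Rps15a the marked run ends before the start, and a run of 9 over the start stays in lower case. Rps6, Rpl34 and Rps18 are shown because their cytoplasmic RNA was called lower after oxyhemoglobin, Rps15a and Rps26 because theirs was called higher, and Rpl10 and Rps2 because they are among the most abundant.
Rps6: aagcggaagtcgggCCTCTTTTTCgtgacg
Rpl34: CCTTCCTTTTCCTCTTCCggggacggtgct
Rps18: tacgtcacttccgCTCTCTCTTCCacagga
Rps15a: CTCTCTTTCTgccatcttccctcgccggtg
Rps26: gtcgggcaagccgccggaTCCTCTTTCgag
Rpl10: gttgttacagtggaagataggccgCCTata
Rps2: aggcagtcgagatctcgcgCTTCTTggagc

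Their positions are chr4:86857353-86857382 (Rps6), chr3:130730323-130730352 (Rpl34), chr17:33955651-33955680 (Rps18), chr7:118116133-118116162 (Rps15a) and chr10:128626492-128626521 (Rps26), all on the minus strand. Rpl10 is shown at chrX:74270801-74270830 and Rps2 at chr17:24720048-24720077, both on the plus strand. Rpl34 has another annotated start, not printed, with a run of 8. Of the genes with a window that were called lower in the cytoplasm at 24 h, 7 had a run of at least 8. The other 4 had shorter runs, among them Rpl6 (6) and Rpl9 (4). A run of at least 8 C or T touched this window in 44% of the ribosomal protein starts and in 17.6% of the 32776 other RefSeq starts. A C at the annotated start with a run of at least 5 was found in 20% and 5.53% of them. Within the 300-base windows and on both strands, CCGGAAG, the core of ETS factor motifs, was in 34.7% of the ribosomal protein promoters and 8.80% of the others. The letters GGGCGG, a core of Sp1 motifs, were in 58.7% and 35.6%, and TATAAA in 10.7% and 13.6%. The 2 genes with the clearest changes described below, Rpl30 and Rpl3, had no entry and are named only. Annotated starts can miss the true start by several bases, so these letters describe the windows and not where transcription begins.

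Nuclear against cytoplasmic RNA of untreated cells spread the ribosomal protein genes over a wide range rather than placing them together. With all 6 columns scaled together, 77 of the 86 could be compared, and the log2 ratio ran between −4.65 and 5.36. Of these, 25 were called higher and 40 lower in the nucleus, beside 80.2% of all genes called in either direction, so a call here says little by itself. The median log2 ratio was −1.74 for 48 large subunit genes and 0.50 for 29 small subunit genes, and that of all genes compared was 0.78. Summed over the genes of each subunit, the log2 ratio was −2.89 for the large and −3.02 for the small subunit. The quartiles of the small subunit genes were −3.50 and 1.60, so their median lies within a wide spread. With total counts the median of all genes shifted by 1.41, and 78.9% of called genes were then higher in the nucleus, against 59.2% with TMM. The split of the ribosomal protein genes then turned to 36 higher and 29 lower, and it was 33 and 33 with log2(TPM + 1). The level of 0 is thus set by the scaling. The order of the genes is the same with either scaling of the counts, but not with TPM. Relative to the median of all genes, the small subunit median was −0.28 with scaled counts and 0.47 with log2(TPM + 1).

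At the cytoplasmic end stood mostly abundant genes. Rps2, which lines the channel where messenger RNA enters the small subunit, had 115 CPM in the nucleus and 2894 CPM in the cytoplasm, a log2 ratio of −4.65 (interval −4.70 to −4.59). Rps16 and Rps12, also of the small subunit, followed at −4.60 and −4.46. Rps6, the substrate of S6 kinase, had 92.3 CPM in the nucleus and 1497 CPM in the cytoplasm, a log2 ratio of −4.02. The stalk protein Rplp1 had 342.5 CPM and 3198 CPM, a log2 ratio of −3.22. Rpl30 and Rpl3 lay in the middle of this range, at −2.82 and −2.25, and Rpl3 was at −0.83 with total-count scaling. Rpl32l, a processed pseudogene that lies within the gene Map7 (chr10:20208490-20208888, plus strand) without overlapping its exons, was also low at −4.61, with an interval of −6.28 to −3.32 that reflects few nuclear reads.

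The nuclear end was held by genes with almost no cytoplasmic count. Rpl36a, an X-linked large subunit gene, had 11.6 CPM in the nucleus and 0.283 CPM in the cytoplasm, and its interval ran between 3.99 and 7.25. Rpl24, of the bridge between the subunits, had 5.64 and 0.283 CPM, a log2 ratio of 4.32 (2.93 to 6.21). Rpl41 and Rps27 followed at 3.66 and 3.19. Among genes with more reads, Rps14 had 33.2 CPM in the nucleus and 3.54 CPM in the cytoplasm, a log2 ratio of 3.23 (2.82 to 3.67). Genes of 1 structural element thus stood at both ends: of the 4 stalk genes, Rplp0 and Rplp1 were called lower and Rplp2 and Rpl12 higher in the nucleus. Around the peptidyl transferase centre, Rpl3, Rpl4 and Rpl10 were lower and Rpl8 higher. Of the 4 platform genes examined, Rps14, Rps28 and Rpsa were higher, and Rps26 had a ratio of 0.92 without reaching 2-fold.

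**Figure D2:**
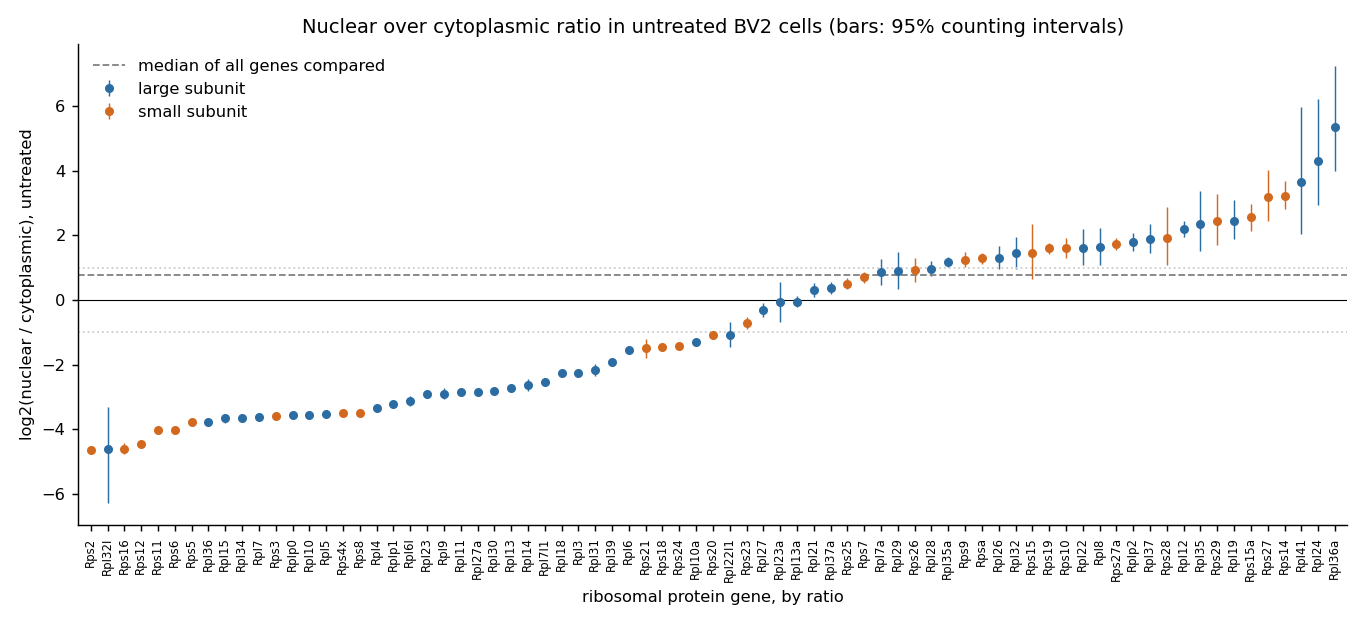
The log2 ratio of nuclear over cytoplasmic level in untreated cells for 75 of the 77 ribosomal protein genes compared, in order, with exact 95% counting intervals as bars, large subunit genes in blue and small subunit genes in orange. The points run between −4.65 for Rps2 and 5.36 for Rpl36a, on both sides of the median of all genes (dashed line, 0.78). Dotted lines mark a 2-fold ratio.

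At 12 and 24 h the ratios again covered a wide range, −4.09 to 4.98 and −3.71 to 4.46. At 12 h, 23 genes were called higher and 34 lower in the nucleus, beside 75.7% of all genes called, and at 24 h 26 higher and 33 lower, beside 74.7%. This direction turned with total-count scaling, to 35 higher and 25 lower at either time, while log2(TPM + 1) gave 33 and 22 at 12 h and 28 and 30 at 24 h. The medians were −0.75 for the large and −0.44 for the small subunit at 12 h, which turned to 0.35 and 0.66 with total-count scaling. At 24 h they were −0.62 and 0.17, and 0.34 and 1.13 with total-count scaling. The median of all genes compared was 0.81 and 0.74. Summed over the genes of the large and the small subunit, the log2 ratios were −2.36 and −2.31 at 12 h, and −2.31 and −2.21 at 24 h. The 3 lowest genes of at least 5 CPM were Rpl32l, Rps12 (−4.05) and Rps16 (−3.73) at 12 h, and Rps12 (−3.71), Rps16 (−3.63) and Rplp0 (−3.61) at 24 h. Among the highest were Rps14 (2.94), Rpl36a (2.88) and Rpl12 (2.74) at 12 h, and Rpl36a (3.30) and Rpl12 (2.98) at 24 h. Rpl30 stood at 0.35 at 12 h, or 1.45 with total-count scaling, and at −2.30 at 24 h. Of all genes called, 80.3% and 78.9% were higher in the nucleus at 12 and 24 h with total-count scaling, against 61.3% at both with TMM.

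Where the genes stood on this scale was set against features that the choice by symbol did not use. The 27 compared genes that hold a snoRNA gene had a median nuclear over cytoplasmic log2 ratio of −2.73 in untreated cells, against 0.44 for the 50 without one. The 29 genes that share at least 50% of their 100-base messenger RNA windows exactly with another annotated gene had a median of −1.45, against −0.51 for the other 48. A split by strand gave a wider gap than this, −0.31 for 43 genes on the plus strand and −2.09 for 34 on the minus strand. Across the 77 genes, Spearman's rho of the ratio was 0.02 with the shared percentage, −0.20 with messenger RNA length and −0.01 with the percentage of exonic bases that overlap another gene. These are descriptions across genes of the same libraries, and genes are not independent replicates.

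In the cytoplasm at 12 h of oxyhemoglobin, more ribosomal protein genes stood below than above their untreated level. Of 72 compared, 6 were called higher and 7 lower, beside 20.6% of all genes called in either direction, 11.6% higher and 9.01% lower. The 7 lower calls held 6 large subunit genes and the 6 higher calls 5 small subunit genes. The median log2 ratio was −0.43 for the large and −0.31 for the small subunit, against −0.04 for all genes compared, and 46 of the 72 were negative. Summed over the genes of each subunit, the log2 ratio was −0.26 for the large and −0.60 for the small subunit. With the deposited TPM, log2(TPM + 1), the median of all genes moved by −0.47, 15.4% of all called genes were higher, against 56.3% with TMM, and 0 ribosomal protein genes were then called higher and 34 lower. These TPM calls rest on the ratio alone, while those on scaled counts also need the interval. Relative to the median of all genes, the medians were −0.39 and −0.27 with scaled counts and −0.45 and −0.42 with TPM, for the large and the small subunit in that order.

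Rpl30 had the lowest ratio of the 72 genes. Rpl30 (chr15:34440505-34443640, minus strand, GRCm38) encodes a large subunit protein at the bridge to the small subunit. Its cytoplasmic level was 343, 40.9 and 193 CPM at 0, 12 and 24 h, and its nuclear level 113, 112 and 87.1 CPM. Cytoplasmic Rpl30 was thus 8.40-fold lower at 12 h than in untreated cells, a log2 ratio of −3.07 (interval −3.19 to −2.96), with no like difference in the nucleus. About 24.8% of its exonic bases overlap the gene D730044K07Rik, and 65.1% of its 100-base windows also occur in another annotated gene. Without strand information, reads of overlapping genes cannot be told apart.

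Rpl3 was lower at both times. Rpl3 (chr15:80077791-80091868, minus strand) encodes a protein that reaches to the peptidyl transferase centre. It had 963, 355 and 299.6 CPM in the cytoplasm and 474, 448 and 431 CPM in the nucleus at 0, 12 and 24 h. In the cytoplasm this was 2.71-fold lower at 12 h and 3.21-fold lower at 24 h than in untreated cells, log2 ratios of −1.44 (−1.48 to −1.40) and −1.68 (−1.73 to −1.64). Other abundant large subunit genes called lower at 12 h included Rpl13 at −1.16 and Rpl10a at −1.01. The only small subunit gene called lower was Rps6, with 958, 475 and 529 CPM at 0, 12 and 24 h and a log2 ratio of −1.01 (−1.05 to −0.97) at 12 h, at the edge of the 2-fold limit. Rpl23a, at the nascent chain exit, was called lower with 0.812 CPM at 12 h against 1.72 CPM in untreated cells.

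The genes called higher at 12 h had few reads. Rps26, which contacts messenger RNA at the exit side of the platform, had 3.67, 8.18 and 8.36 CPM at 0, 12 and 24 h, a log2 ratio of 1.16 (0.75 to 1.58) at 12 h. This ratio was 0.36 with log2(TPM + 1), which is under 2-fold. Rpl32l had 3.17, 10.4 and 9.39 CPM and a ratio of 1.71 (1.30 to 2.13), which was 0.94 with log2(TPM + 1). Rps15a, Rps15, Rps28 and Rps29 were called higher at under 5 CPM, with ratios between 1.15 and 1.67. Among abundant genes, several had positive ratios under 2-fold in scaled counts. Rplp1 had 2046, 3566 and 2751 CPM at 0, 12 and 24 h, a log2 ratio of 0.80 (0.78 to 0.82) at 12 h. Its stalk partner Rplp0 had 406, 579 and 549 CPM and a ratio of 0.51, and Rplp2, the other acidic stalk protein, had the same 0.51 on 5.57, 7.93 and 7.48 CPM. Rpl12, at the base of the stalk, had −0.33 with an interval that included 0. Rpl4, near the peptidyl transferase centre and the exit tunnel, had 860.4, 1178 and 1146 CPM and a ratio of 0.45. Rpl28, a large subunit protein, had ratios of 0.83 at 12 h and 0.58 at 24 h.

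At 24 h more cytoplasmic genes were called than at 12 h in scaled counts, 20 against 13, but with log2(TPM + 1) the numbers were 36 and 34. Of the 72 genes, 5 were called higher and 15 lower, beside 17% of all genes called in either direction, 10.2% higher and 6.74% lower. For the large subunit 2 of 44 were higher and 13 lower, and for the small subunit 3 of 28 were higher and 2 lower. The medians were −0.56 for the large and −0.51 for the small subunit, against −0.06 for all genes, and 51 of the 72 were negative. The log2 ratio summed over the genes lay in the other order, −0.52 for the large and −0.74 for the small subunit. Relative to the median of all genes, the large and small subunit medians were −0.496 and −0.452 with scaled counts. With log2(TPM + 1) they were −0.499 and −0.593, so the order of the subunits depends on the measure. With log2(TPM + 1), which moved the median of all genes by −0.34, 1 gene was called higher and 35 lower, and 21.4% of all called genes were higher, against 60.3% with TMM. Both treated times were set against the same untreated cells, so their values are given side by side and not as independent results.

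Rpl10, which completes the peptidyl transferase centre late in assembly, lost the most CPM of the 72 genes. It had 2388, 1257 and 869.5 CPM at 0, 12 and 24 h, log2 ratios of −0.93 at 12 h and −1.46 (−1.48 to −1.43) at 24 h. The 2 proteins that form the 5S ribonucleoprotein, a particle that also binds the p53 regulator MDM2, were both called lower at 24 h. Rpl5 had 1391, 760.1 and 651 CPM and a ratio of −1.10, and Rpl11 had 149, 81.4 and 65.0 CPM and a ratio of −1.20. Also among the genes called lower were Rpl13 (−1.32), Rpl10a (−1.22), Rpl6 (−1.19), Rpl7 (−1.19), Rpl9 (−1.13) and Rpl34 (−1.09), and of the small subunit Rps12 (−1.22) and Rps18 (−1.10). Rpl23a and Rpl22l1 were called lower at under 5 CPM.

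The genes higher at 24 h were again low ones. Rps26 and Rpl32l had ratios of 1.19 and 1.57, which with log2(TPM + 1) were 0.56, under 2-fold, and 1.00, and Rps15, Rps29 and Rpl19 were called at under 5 CPM with ratios between 1.03 and 1.25. Rpl30 stood at −0.83 (−0.89 to −0.78) and was not called, though with log2(TPM + 1) it was, at −1.35. Rplp1, Rplp0, Rplp2 and Rpl4 had ratios of 0.43, 0.43, 0.43 and 0.41 in scaled counts at 24 h, but their deposited TPM lay the other way. In cytoplasm at 0, 12 and 24 h, the TPM of Rplp1 were 12060.6, 12605 and 11208, and those of Rplp0 were 341, 291 and 318. The TPM of Rpl4 were 846, 695 and 779, and those of Rplp2 4.70, 4.02 and 4.37, so for Rplp0, Rplp2 and Rpl4 the direction at 12 h also depends on the scaling. Between 24 h and 12 h in the cytoplasm, 1 gene of 72 was called, beside 4.78% of all genes, 2.88% higher and 1.9% lower. With total-count scaling 73.1% of all called genes were higher, against 60.3% with TMM. The gene was Rpl30, 4.72-fold higher at 24 h than at 12 h, a log2 ratio of 2.24 (2.12 to 2.36), when the median of the 72 was −0.20. The lowest of at least 5 CPM were Rps18 (−0.76), Rpl39 (−0.73) and Rpl37a (−0.60), none of them called.

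**Figure D3:**
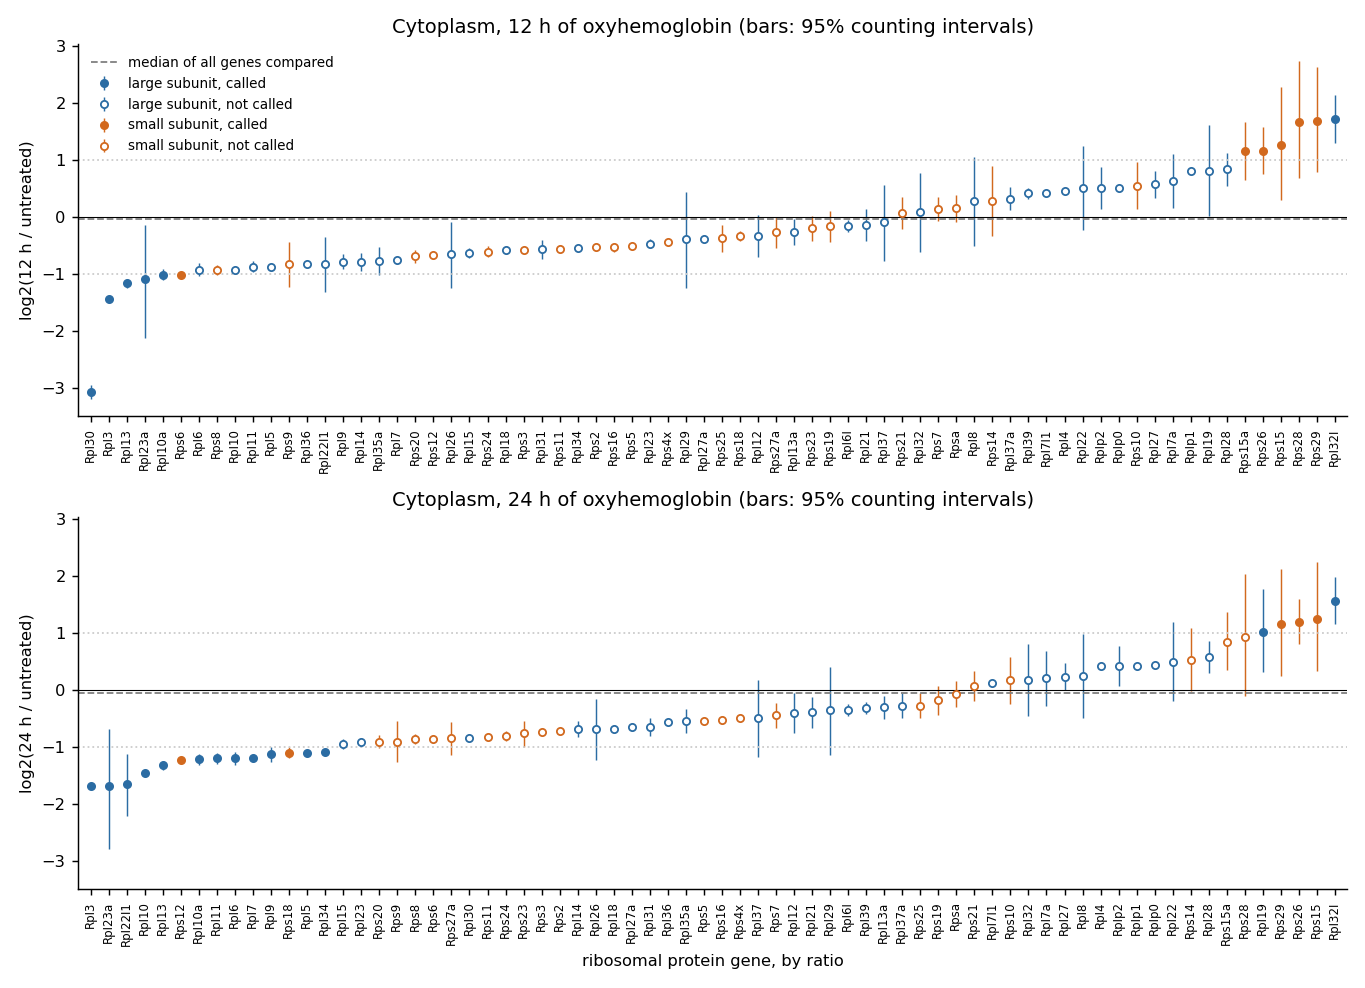
The cytoplasmic log2 ratio of 70 of the 72 ribosomal protein genes compared, at 12 h (top) and 24 h (bottom) of oxyhemoglobin over untreated cells, in order within each panel, with exact 95% counting intervals as bars. Filled points were called. Rpl30 lies alone at −3.07 at 12 h and within the middle group, at −0.83, at 24 h, where 14 filled points lie below 0.

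Shared sequence moved with these differences. The 25 compared genes with at least 50% of their 100-base windows in another gene had a median log2 ratio of −0.83 at 12 h and −0.86 at 24 h, with 6 and 11 called lower. The 47 genes with less sharing had medians of −0.15 and −0.36, with 1 and 4 called lower. The part of multiply aligned reads in the result was not tested. Genes with a snoRNA gene inside had medians of −0.54 and −0.74, against −0.20 and −0.36 for those without. By strand, the medians were −0.33 and −0.40 for 41 genes on the plus strand and −0.47 and −0.83 for 31 on the minus strand. Genes with a run of at least 8 pyrimidines touching the 30-base window around the start, as printed for Rpl34 and Rps6, had medians of −0.46 and −0.65 (28 genes), against −0.18 and −0.46 for 24 genes with shorter runs. Such a run can lie wholly before or after the start. Rpl10, whose window shows a run of only 3 inside it, was among those called lower at 24 h. Rps15a, with a run of 10 before the start, was among those called higher at 12 h.

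In the nucleus few ribosomal protein genes reached 2-fold in scaled counts. Of 77 compared, 1 was called at 12 h, beside 14.6% of all genes (7.92% higher, 6.64% lower), 1 at 24 h, beside 13.6% (7.88% higher, 5.75% lower), and 1 between 24 h and 12 h, beside 3.02% (1.83% higher, 1.19% lower). It was Rpl32l, higher each time, with 0.303, 1.30 and 2.79 CPM at 0, 12 and 24 h, a low count within Map7. With log2(TPM + 1) 7 genes were called at 24 h, 1 higher and 6 lower, and with log2(TPM + 0.1) 11, 1 higher and 10 lower. At 12 h the medians were −0.02 for the large and −0.14 for the small subunit, against 0.00 for all genes compared. At 24 h they were −0.15 and −0.01, against −0.02. With total-count scaling the median of all genes moved by −0.22 at 12 h and −0.30 at 24 h, and the share of called genes that were higher was 31.9% and 27.5%, against 54.4% and 57.8% with TMM. With log2(TPM + 1) that share was 31.7% and 12.8%, and between 24 h and 12 h it was 44.2% with total counts and 9.31% with TPM, against 60.7% with TMM.

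None of the abundant genes reached 2-fold in the nucleus in scaled counts. Rpl4 had 200.3, 331 and 324 CPM in the nucleus at 0, 12 and 24 h, log2 ratios of 0.73 (0.66 to 0.79) and 0.69 (0.63 to 0.76). Its nuclear TPM were 149, 199 and 158, so the ratio was 0.41 at 12 h and 0.08 at 24 h with log2(TPM + 1). Rpl7l1 had ratios of 0.58 and 0.46, and Rplp1 0.40 and 0.37, and all 3 were also positive in the cytoplasm with scaled counts. At 24 h the sign of Rpl7l1 turned to −0.15 with log2(TPM + 1), and the nuclear TPM of Rplp1 were 2286, 2434 and 1924 at 0, 12 and 24 h. Rps28 had 0.43 at 12 h, and Rpl29 had 0.56 at 24 h, or −0.05 with log2(TPM + 1). At the low end were Rpl37a (−0.56), Rps9 (−0.47) and Rpl35 (−0.45) at 12 h, and at 24 h Rpl10a, Rpl19 and Rps9, each at −0.62. With log2(TPM + 1) these 3 passed 2-fold at 24 h, at −1.16, −1.13 and −1.11, where all genes moved by −0.45. Between 24 h and 12 h the ratios ran between −0.62 for Rpl10 and 0.48 for Rpl35, apart from Rpl32l.

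Nuclear and cytoplasmic differences of the same gene were loosely related. Over the 72 genes compared in both, 11 were positive in both fractions at 12 h, 25 negative in both, 21 positive in the nucleus only and 15 positive in the cytoplasm only. At 24 h the counts were 10, 34, 17 and 11. Spearman's rho across the genes was 0.06 at 12 h and 0.43 at 24 h, as a description over genes that share libraries.

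**Figure D4:**
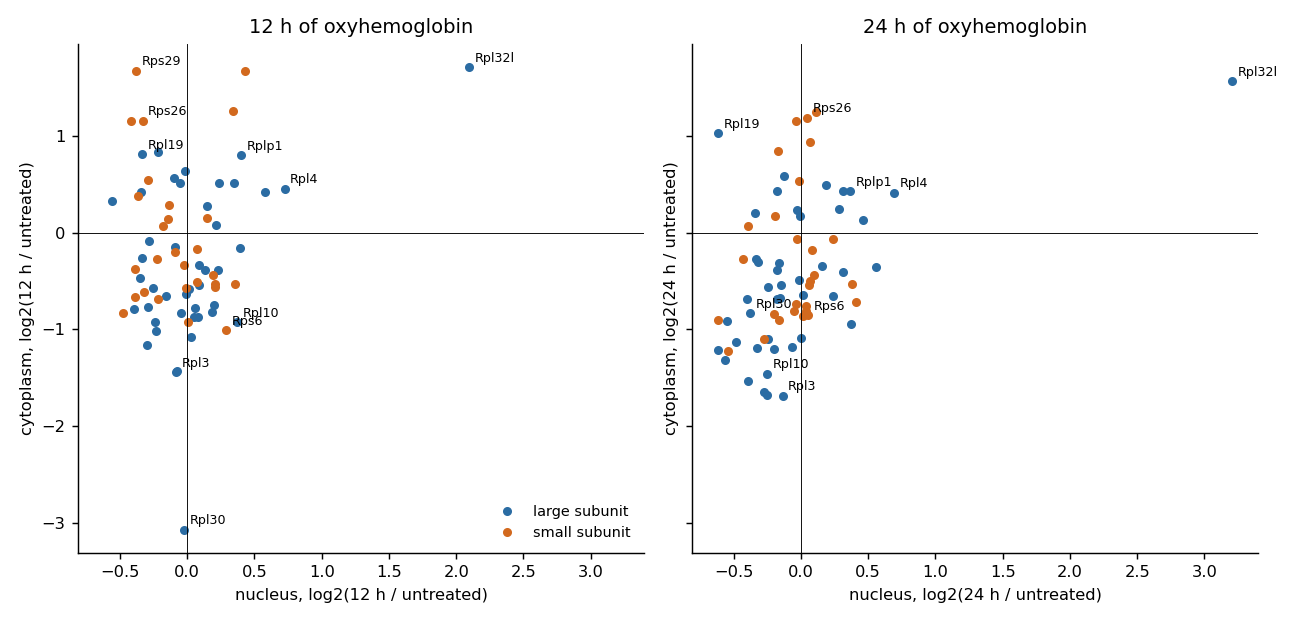
Nuclear (horizontal) against cytoplasmic (vertical) log2 ratio, treated over untreated, of the 72 ribosomal protein genes compared in both fractions, at 12 h (left) and 24 h (right), with large subunit genes in blue and small subunit genes in orange. Apart from Rpl32l the points lie between −0.56 and 0.73 on the nuclear axis at 12 h, while on the cytoplasmic axis they run between −3.07 and 1.67.

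The change in the nuclear over cytoplasmic ratio itself was computed for 66 genes at each time, not all the same ones, with reads in all 4 groups and each fraction at or above 1.84 CPM (without TMM) in at least 1 of its groups. It was given an approximate 95% counting interval on the log scale. At 12 h it was called higher for 11 and lower for 4, beside 17.6% of all genes called, 13.3% higher and 4.33% lower. The median was 0.44, close to the 0.42 of all genes. At 24 h it was higher for 10 and lower for 2, beside 15.5% called, 11% higher and 4.47% lower, and the median was 0.59, against 0.38 for all genes. The ratio rose most for Rpl30 at 12 h, by 3.18 (3.03 to 3.33), with a lower cytoplasmic and a nearly equal nuclear level. For Rpl3 it rose by 1.49 at 12 h and 1.62 at 24 h, for Rpl10 by 1.43 and 1.28, and for Rps2 by 1.02 and 1.21. For Rps6 it rose by 1.43 at 12 h. The ratio fell for Rps29 (−1.93), Rps15a (−1.44), Rps26 (−1.36) and Rpl19 (−1.02) at 12 h, and for Rpl19 (−1.57) and Rps26 (−1.07) at 24 h. A changed ratio does not show that RNA moved between the fractions.

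Other genes of cytosolic ribosomes fall outside the symbol rule. Rps3a1 had 315, 507 and 455 CPM in the nucleus and 2310.2, 2288 and 1829.7 CPM in the cytoplasm at 0, 12 and 24 h, with ratios under 2-fold. Rack1, a scaffold on the small subunit, had cytoplasmic ratios of −0.69 and −0.75. Fau, a ubiquitin-like fusion of Rps30, was called higher in the nucleus at 12 h on 2.92 CPM against 1.33 CPM in untreated cells. Rpl36al was called higher in the cytoplasm at 12 h, with 7.06 CPM against 2.445 CPM in untreated cells, and lower at 24 h than at 12 h.

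Other RNAs listed as carrying the TOP motif also had lower calls in the cytoplasm. Of 21 listed, 20 were compared and 4 called lower at 12 h and 4 at 24 h, with 0 higher, and medians of −0.38 and −0.45, beside 9.01% and 6.74% of all cytoplasmic genes called lower. They were the elongation factor Eef1a1 (−1.25 and −1.31), the intermediate filament gene Vim (−1.29 and −1.51), Tpt1 (−1.18 and −1.10) and the snoRNA host Snhg1 (−1.94 and −1.66). In the nucleus 0 of 21 were called at either time. Of 21 genes of the mTOR and S6 kinase pathway that control TOP translation, 19 were compared in the cytoplasm, where Deptor, an mTOR inhibitor, was lower at 12 h (−2.24, with 60.3 CPM against 284 CPM in untreated cells) and Tsc2 at −1.14 on 2.44 CPM, and 0 were called at 24 h. All genes called in either direction were 20.6% and 17% in the cytoplasm. In the nucleus 0 of these 21 were called at either time, beside 14.6% and 13.6% of all genes.

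Genes for making the ribosome were higher in the nucleus in some cases, in scaled counts. Of 29 genes of ribosomal RNA processing and large subunit assembly, 5 were called higher and 0 lower at 12 h, and 6 and 0 at 24 h. Among them were Nop2, an RNA methyltransferase (1.09 and 1.02), Bop1, of the PeBoW complex (1.26 and 1.31), and Rrs1, which brings the 5S particle to the pre-ribosome (1.15 and 1.15). In the cytoplasm 0 of 27 were called at 12 h and 1, Nsa2, was lower at 24 h (−1.01). Of 36 small subunit assembly genes found of 37 listed, 4 were called higher and 0 lower in the nucleus at 12 h, with Bysl at 1.09, and 3 higher and 1 lower at 24 h, with Imp3 at 1.32. In the cytoplasm only Nop10 was called, higher at both times (1.29 and 1.15). All nuclear genes called were 14.6% at 12 h (7.92% higher) and 13.6% at 24 h (7.88% higher), and all cytoplasmic genes called 20.6% and 17%. With total counts the nuclear median of all genes moved by −0.22 at 12 h and −0.30 at 24 h. With log2(TPM + 1) it moved by −0.23 and −0.45. Nuclear calls close to the 2-fold limit, such as Nop2, Rrs1 and Bysl, therefore depend on the scaling.

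For RNA polymerase I, which transcribes the ribosomal RNA precursor, 13 of 15 genes were compared in the nucleus. Rrn3, its initiation factor, was called higher at 12 h (1.02) and 24 h (1.06), with 110.1 CPM at 0 h, 223 CPM at 12 h and 229.9 CPM at 24 h. Cd3eap was higher at 24 h (1.07) and Taf1b lower (−1.24 on 3.34 CPM). The nuclear ratios of Rrn3 and Cd3eap also lie close to the 2-fold limit, so these calls depend on the scaling. In the cytoplasm 2 of 11 were higher at each time, Taf1d (1.27) and Polr1c (1.54) at 12 h and Polr1c (1.58) and Ubtf (1.15) at 24 h. Of 11 chaperones and importins of ribosomal proteins, 9 were compared and 0 were called in either fraction against untreated cells. Of 6 genes of the 5S rRNA and p53 arm, Rrs1 was higher in the nucleus at both times and Gtf3a lower at 12 h (−1.04 on 2.98 CPM). In the cytoplasm 0 of 5 were called against untreated cells. Beside these counts, 7.92% and 7.88% of all nuclear genes and 11.6% and 10.2% of all cytoplasmic genes were called higher at 12 and 24 h.

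Mitochondrial ribosomal proteins, which build the separate ribosome of the organelle, had positive medians in the cytoplasm in scaled counts. Of 78 listed, 66 were compared there, with 6 called higher and 2 lower at 12 h, beside 11.6% and 9.01% of all genes, and 5 and 2 at 24 h, beside 10.2% and 6.74%. The medians were 0.19 and 0.12, against −0.04 and −0.06 for all genes compared. With log2(TPM + 1) the cytoplasmic median of all genes moved by −0.47 and −0.34, so the sign of these medians can depend on the scaling. The most abundant of those called were Mrpl54 (1.72 and 1.39), Mrpl4 (−1.02 and −1.10) and Mrpl22 (1.25 and 1.18). In the nucleus 4 of 70 were higher and 2 lower at 12 h, and 5 and 0 at 24 h, beside 7.92% and 6.64% of all genes at 12 h and 7.88% and 5.75% at 24 h. The difference from the cytosolic genes was not tested.

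Among 11049 genes, those whose 6 centred log2 levels lay nearest to Rpl30 by Euclidean distance were Alox15 (0.82), Gm49201 (0.99) and Hacd4 (1.08). Hacd4 had 127, 26.6 and 52.1 CPM in the cytoplasm at 0, 12 and 24 h, lowest at 12 h. Alox15 and Gm49201 were under 10 CPM in all 6 groups. Nearest to Rpl3 were Zfp704 (0.34), Vars (0.36) and Slc29a3 (0.39). The distances of the Rpl30 neighbours exceeded those of the Rpl3 neighbours, and none of the 6 is a ribosomal protein gene.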

How the data were processed

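The deposited count table has 6 columns, 1 per fraction and time. Its values times 3 were whole within 0.0001, and so the deposited values were taken as authors' means over 3 libraries of an expected count. The authors also deposited TPM, a level per transcript length, for the same groups. Per the submitters' processing notes, HISAT2 2.2.0, featureCounts and DESeq2 were used with GRCm38; for annotation release, strand and multiply aligned reads the setting is not given in the sources used here. Symbols and positions came from GENCODE M21 on GRCm38.

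The planned tests between libraries could not be run on 1 column per group. Counts were multiplied by 3 to give reads and scaled by TMM (trim 30% of log ratios and 5% of levels), nucleus and cytoplasm apart for time, all 6 columns together for nuclear over cytoplasmic ratios. Genes were compared if 1 group reached the CPM of a mean count of 10 at median depth (1.89 CPM in the nucleus, 1.54 CPM in the cytoplasm, 1.84 CPM over all, without TMM). Ratios carry exact 95% Clopper-Pearson intervals from binomial counts. A group at 0 was set to 3 reads. Genes named are Rpl30 and Rpl3, those called at a mean of 5 CPM or more (without TMM), the 3 highest and lowest per comparison, the 5 highest per length, the paralogs, ribosomal proteins outside the symbol rule, up to 3 called genes per list and the 3 genes nearest to Rpl30 and Rpl3; some genes are counted but not reported here by name, and 2 are not drawn in the ordered plots. Others under 5 CPM were named after their values were seen, to account for every call. The genes and the 9 lists were chosen with earlier results of these data known. Scripts were tested on simulated data. Computations ran in Python 3.11.15 (scipy 1.17.1, pandas 2.3.3, numpy 2.4.6), and figures in matplotlib 3.10.9. Alternatives were other scalings, no filter, the deposited TPM with pseudocounts of 1 and 0.1, and the removal of the gene with most counts. Calls with TPM used the 2-fold ratio alone.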

Additional observations from a re-analysis of the deposited data

Results flagged for a closer look

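In 6 cases the nuclear and the cytoplasmic log2 ratio of the same ribosomal protein gene had opposite signs, with the cytoplasmic one called and the nuclear counting interval on the other side of 0. At 12 h over untreated cells, Rps15a had −0.42 in the nucleus and 1.15 in the cytoplasm, Rps26 −0.33 and 1.16, Rps29 −0.38 and 1.67, and Rps6 0.29 and −1.01. At 24 h over untreated cells, Rpl19 had −0.62 in the nucleus and 1.03 in the cytoplasm. For 24 h over 12 h, Rpl30 had −0.36 in the nucleus and 2.24 in the cytoplasm. The difference between the fractions was not tested, since no library values were analysed. The nuclear TPM of Rps6 were 92.3 at 12 h and 93.6 in untreated cells, so its nuclear sign turns with that scale. With log2(TPM + 1), 0 ribosomal protein genes were called higher in the cytoplasm at 12 h, so Rps15a, Rps26 and Rps29 lose the call, as does Rpl19 at 24 h with cytoplasmic TPM of 2.64 against 1.87 in untreated cells. Rps15a, Rps29 and Rpl19 were under 5 CPM in the compared cytoplasmic groups on average.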

How the results depend on the processing

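No paired analysis was possible because each group has 1 column of means and no library values, and no replicate could be left out. With total-count or median-of-ratios scaling, and without the gene with most counts, none of the 9 numbers of ribosomal protein genes called moved by over 1.5 times, but with total counts the nuclear over cytoplasmic split turned to 36 higher and 29 lower in untreated cells and 35 and 25 at 12 h and at 24 h. With log2(TPM + 1) and log2(TPM + 0.1), the number called was 34 and 39 in the cytoplasm at 12 h (13 with scaled counts), 36 and 39 at 24 h (20 with scaled counts), 7 and 11 in the nucleus at 24 h, and 0 and 0 in the nucleus between 24 h and 12 h. These TPM calls rest on the 2-fold ratio alone, without an interval, and so on a looser rule than those with scaled counts. Without a filter on low counts, 2 were called between 24 h and 12 h in either fraction. Without genes that overlap another gene or are of a pseudogene class, an alternative chosen after seeing the data, 0 were called in the nucleus in all 3 time comparisons and 0 in the cytoplasm between 24 h and 12 h. Of 108 medians, 51 moved little, 41 moved and 16 changed sign. The median of small subunit genes between 24 h and 12 h became −0.070 with total counts and −0.27 and −0.29 with TPM in the nucleus, and 0.015 with either TPM setting in the cytoplasm (0.0145 and 0.0149). Nuclear over cytoplasmic medians at 12 h became 0.35 (total counts), 0.36 and 0.37 (TPM) for the large subunit, and 0.66 (total counts), 0.21 (no filter), 0.62 and 0.68 (TPM) for the small. At 24 h they became 0.34 (total counts), 0.046 and 0.047 (TPM) for the large, and −0.10 (median of ratios) for the small. The cause was not tested, beyond the shift of all genes that a scaling brings. Of 486 values for named genes under alternatives, 467 kept their side of the 2-fold limit, 12 passed it and 7 lost it. In 10 the sign of an uncalled value changed: Rpl29 (−0.047 and −0.057) and Rpl7l1 (−0.15 and −0.15) in the nucleus at 24 h with TPM, and the nuclear over cytoplasmic ratio of Rpl3 at 12 h (0.34 with total counts, 0.36 and 0.37 with TPM) and 24 h (0.33, 0.042 and 0.043). Depth limits the genes under 5 CPM, and the intervals cover counting error only.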
